A study of Homo sapiens with 12 samples.

Results

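The transcripts of 6 DNA mismatch repair genes were followed in HCT116, a human colon carcinoma cell line that is deficient in mismatch repair. The genes were taken by name: the MutS homologues MSH3 and MSH6, the MutL homologues MLH3, PMS1 and PMS2, and the nuclease gene EXO1. They are 6 of 60648 genes in the deposited count table, and all 6 were among the 18289 genes with enough counts to be tested. RNA-seq libraries made by poly-A selection came from 4 groups of 3 libraries, described as biological replicates. WT stands for cells with MTHFD2 intact and KO for cells in which MTHFD2 was knocked out. RNA of both genotypes was taken soon after the knock-out had been made (initial) and again when the cells had been grown for 2 months (final). MTHFD2 encodes a mitochondrial enzyme of one-carbon folate metabolism. All groups are the same line, kept in DMEM with fetal bovine serum, so any repair defect of the line is shared by the WT controls. The KO cells are 1 isolated CRISPR-Cas9 clone, so the genotype and the clone cannot be told apart in any comparison of KO with WT. The initial and final libraries are separate harvests, so culture time and harvest occasion cannot be told apart in any comparison over time.

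Mismatch repair removes base mispairs and small loops that DNA polymerases leave behind. A MutS complex binds the mispair: the partner MSH6 serves single mispairs and short loops, and the partner MSH3 serves larger loops. A MutL complex is then recruited, in which PMS2 provides the nicking activity in most repair, while MLH3 acts mainly in meiosis and in loop processing and PMS1 has no nicking site of its own. EXO1 then removes the strand that holds the error, and replication proteins fill the gap. Runs of 1 repeated base are where slippage occurs most often, and cells without mismatch repair gain and lose bases there.

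Several of these genes contain such runs in their own coding sequence, and they are shown because these are the repeats that the encoded proteins guard. In the GENCODE 29 transcripts on GRCh38, 5 runs of at least 8 identical bases lie in the coding sequence of 4 of the 6 genes. They are given 5′ to 3′ on the coding strand, with the run in capitals and 21 bases on each side.
MSH3 A run of 8, exon 7 of 24, chr5:80675096-80675103: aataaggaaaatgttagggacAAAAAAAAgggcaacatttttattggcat
MSH6 C run of 8, exon 5 of 10, chr2:47803501-47803508: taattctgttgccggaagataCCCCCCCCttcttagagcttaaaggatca
MLH3 A run of 9, exon 1 of 12, chr14:75047901-75047909: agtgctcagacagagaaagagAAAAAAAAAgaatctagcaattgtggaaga
MLH3 A run of 8, exon 1 of 12, chr14:75047635-75047642: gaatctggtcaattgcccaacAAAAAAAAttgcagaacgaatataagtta
PMS2 A run of 8, exon 11 of 15, chr7:5987526-5987533: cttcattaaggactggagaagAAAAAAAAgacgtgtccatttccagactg
The exons are numbered within 1 coding transcript per gene. PMS1 and EXO1 have no run of this length. Among 19517 coding genes scanned in the same way, 1116 (5.7%) hold such a run. The density was 25.3 runs per 100 kb of coding sequence in the 6 genes and 3.77 over all genes. These are reference sequences. The counts per gene carry no sequence, so the state of the runs in HCT116 was not examined here.

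The libraries were close in depth, from 38597809 to 40017561 counts, and libraries of 1 group correlated at 0.989 to 0.996. MTHFD2 itself stood at 413 ± 41.2 CPM (counts relative to the library total after TMM scaling; mean ± SD, n = 3) in WT initial, 356 ± 32.4 in WT final, 137 ± 9.1 in KO initial and 137 ± 16.7 in KO final libraries, so all 6 KO libraries were lower, as labelled. Colon epithelial markers were present: the summed level of the 7 markers ran from 2624 to 3232 CPM in WT initial, 3061 to 3202 in WT final, 2466 to 2705 in KO initial and 2214 to 2588 in KO final libraries. VIL1 alone, at 0.256 CPM or less in each group, was too low to be tested. Of 9 markers of fibroblasts, leukocytes and endothelium, 4 (COL1A2, PTPRC, CD3E and CDH5) held 3 counts or fewer in every library. The 9 together summed to 57.5 to 79.7 CPM in WT and 38.3 to 59.9 CPM in KO libraries. Most of this was the collagen gene COL1A1, a fibroblast marker. It averaged 61.7 CPM in WT initial, 68.5 in WT final, 40.6 in KO initial and 49.3 in KO final libraries. None of the other markers averaged above 1.51 CPM in any group. The part of these markers in the results below was not tested, and in bulk RNA fewer cells of a kind and less RNA per cell cannot be told apart.

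The 6 transcripts differed widely in level when compared per kb of gene length. Over the 12 libraries EXO1 averaged 12.1 CPM per kb, MSH6 10.95, PMS1 9.99, PMS2 3.49, MLH3 3.00 and MSH3 0.817. The ranges of EXO1, MSH6 and PMS1 overlapped, as did those of PMS2 and MLH3. PMS1 did not overlap PMS2, and MLH3 did not overlap MSH3. Among all tested genes these levels lay at percentile 79.8 for EXO1, 78 for MSH6, 76.1 for PMS1, 54.7 for PMS2, 51.9 for MLH3 and 31.9 for MSH3. Thus the loop-binding partner MSH3 was the lowest of the 6 in every library and MSH6 was among the upper ones. The gene lengths are those of all exons together. With the length of 1 coding transcript, the levels of the top 3 changed order, to PMS1 16.9, MSH6 16.05 and EXO1 15.7 CPM per kb.

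**Figure D1:**
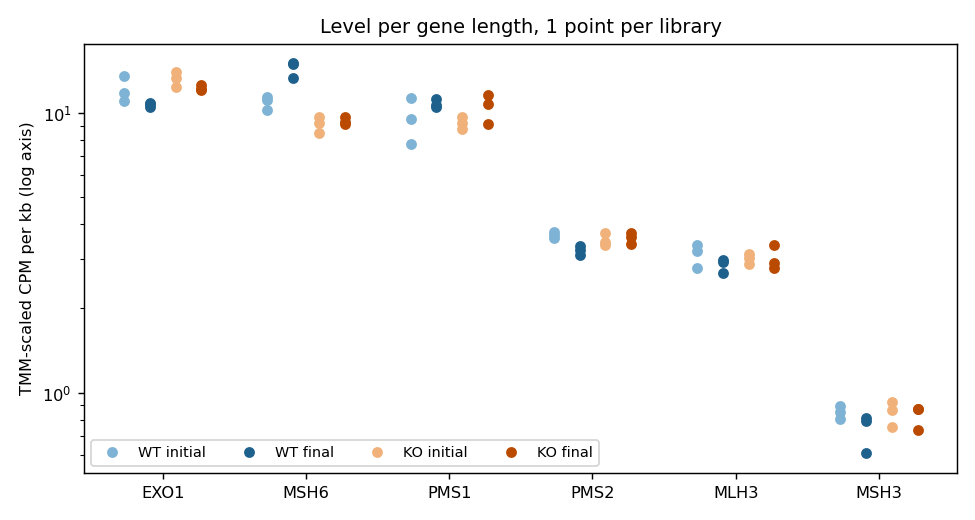
Level of each gene in TMM-scaled CPM per kb of gene length (log axis), 1 point for each of the 12 libraries, coloured by group. EXO1, MSH6 and PMS1 form an upper cluster, PMS2 and MLH3 lie near 3 CPM per kb, and MSH3 lies below 1.

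MSH6, which encodes the partner that detects single mispairs, was the member that varied most: its coefficient of variation over the 12 libraries was 20.8%, against 6.11% to 11.6% for the other genes. The gene (ENSG00000116062.17) spans chr2:47695530-47810063 on the plus strand. Its level was 112.5, 124 and 122 CPM in the WT initial libraries and 164, 146 and 164 CPM in WT final. In the KO it was 92.7, 106 and 101 CPM at the initial and 106, 99.7 and 102 CPM at the final harvest. All 6 KO libraries lay below all 6 WT libraries, and the 3 WT final libraries lay above the rest.

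At the initial harvest MSH6 was 16.4% lower in KO than in WT, with a log2 fold change of -0.26 (SE 0.08, 95% interval -0.43 to -0.09, adjusted p = 0.031 in edgeR's quasi-likelihood test with Benjamini-Hochberg adjustment). It was the 1 gene of the 6 called in this comparison, in which 19.9% of all tested genes were called, 8.55% as higher and 11.3% as lower. Ranges of 3 against 3 libraries that do not overlap were found for 35.5% of all genes. At the final harvest MSH6 was 35.1% lower in KO, with a log2 fold change of -0.62 (SE 0.08, 95% interval -0.79 to -0.46, adjusted p = 3.05e-05). Again it was the 1 gene of the 6 called, against 18.5% of all genes, 8.38% as higher and 10.2% as lower. Over both harvests the difference was -0.44 (SE 0.06, adjusted p = 1.53e-05), and MSH6 and EXO1 were the 2 genes called, MSH6 as lower and EXO1 as higher, against 30.1% of all genes, 16.1% as lower and 14% as higher. Calls in the same direction at both harvests were made for 10.5% of all tested genes, and ranges of 6 against 6 libraries that do not overlap were found for 12.8%. The call at the initial harvest rests on single libraries: the adjusted p rose to 0.0602 without WT initial replicate 2, 0.1 without WT initial replicate 3, 0.135 without KO initial replicate 1 and 0.0784 without KO initial replicate 3. The calls at the final harvest and over both harvests held under every alternative run.

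MSH6 was higher in WT final than in WT initial libraries, by 32.2% or 0.40 on the log2 scale (SE 0.08, 95% interval 0.23 to 0.57, adjusted p = 0.00557 in edgeR's quasi-likelihood test). It was the 1 gene of the 6 called in WT over time, a comparison in which 6.47% of all tested genes were called, 3.05% as higher and 3.42% as lower. In KO cells the difference over time was 0.04 (95% interval -0.13 to 0.21, adjusted p = 0.878). None of the 6 genes was called over time in KO, where 1.48% of all genes were (0.837% higher and 0.64% lower): the count was 0 in edgeR, 0 at an unadjusted p under 0.05 and 0 in DESeq2. The test of the interaction, which asks whether the KO difference itself changed between harvests, gave -0.37 for MSH6 (SE 0.11, 95% interval -0.61 to -0.13, unadjusted p = 0.00509, adjusted p = 0.155). That did not pass, so the KO difference in MSH6 was not shown to differ between the harvests. Of the 6 genes, 0 were called in the interaction by edgeR and 0 by DESeq2, and 1, MSH6, had an unadjusted p under 0.05, while 1.28% of all genes were called (0.809% higher and 0.476% lower). The rise in WT and the KO difference at the final harvest share the 3 WT final libraries.

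**Figure D2:**
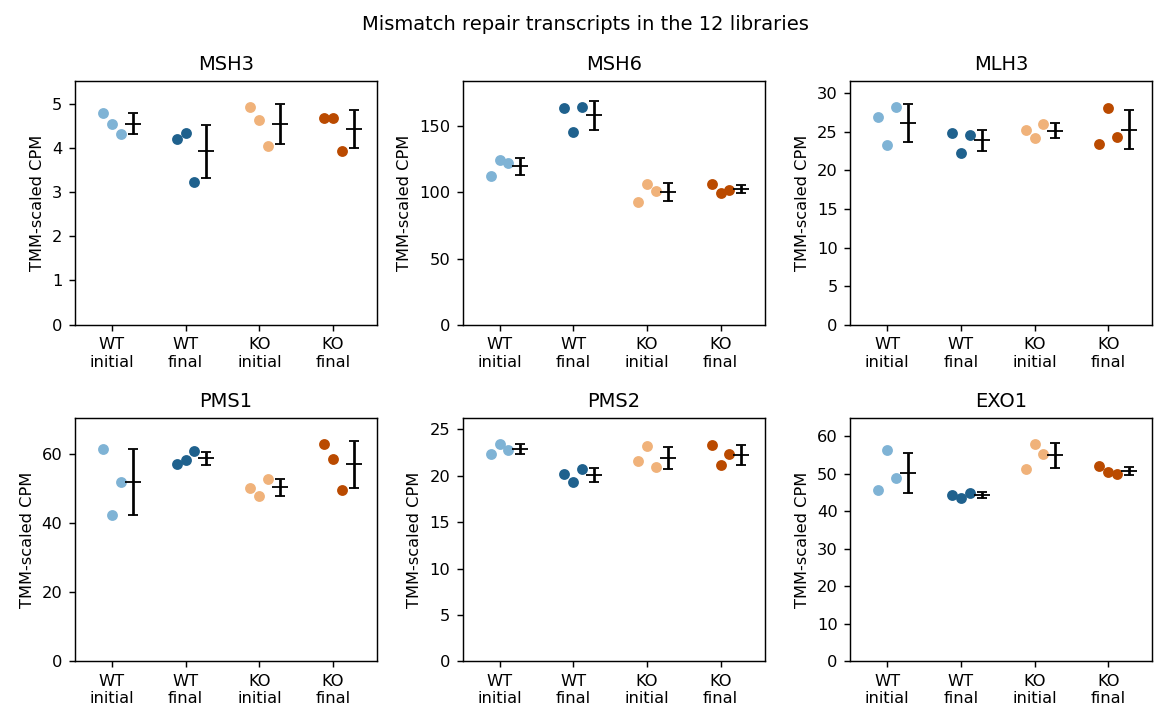
TMM-scaled CPM of the 6 genes in each library (points), with the mean and SD of each group of 3 (bars), each panel on its own axis from 0. MSH6 is highest in the 3 WT final libraries (146 to 164 CPM) and lower in all KO libraries (92.7 to 106 CPM). The group ranges of MSH3 and MLH3 overlap, and those of PMS1 overlap except between WT final and KO initial.

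MSH6 shares 33.2% of its exon bases, 3640 bases, with FBXO11, a gene on the opposite strand that encodes a ubiquitin ligase subunit. Whether the counting used strand is not given in the sources used here, so reads from the shared bases cannot be told apart. FBXO11 stood at 64.9 ± 2.13 CPM in WT initial, 63.3 ± 1.60 in WT final, 56.2 ± 1.22 in KO initial and 57.6 ± 1.68 in KO final libraries (SD, n = 3). Its KO libraries were below its WT libraries too, by -0.17 on the log2 scale over both harvests (adjusted p = 0.0132), beside -0.44 for MSH6; with no filter on low counts the call of FBXO11 was lost (adjusted p = 0.0815). Over time in WT, where MSH6 rose by 0.40, FBXO11 had a log2 fold change of -0.04 (adjusted p = 0.83). The initial KO difference of FBXO11 was -0.21 (adjusted p = 0.0436), a call that was lost in 14 of 18 alternatives, and the final one was -0.14 (adjusted p = 0.202).

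MSH3, the partner for larger loops, was low and did not pass the test in any comparison. The gene (ENSG00000113318.11) spans chr5:80654652-80876815 on the plus strand, and its counts were 125 to 196 per library. Its level was 4.79, 4.55 and 4.31 CPM in WT initial, 4.21, 4.33 and 3.23 in WT final, 4.92, 4.64 and 4.03 in KO initial, and 4.68, 4.67 and 3.92 in KO final libraries. The groups overlapped, with 1 low library in WT final. The KO difference was -0.01 on the log2 scale at the initial harvest (95% interval -0.29 to 0.28, adjusted p = 0.983) and 0.17 at the final one (95% interval -0.12 to 0.47, adjusted p = 0.447). These intervals are the widest among the 6 genes in both comparisons, and differences inside them are not excluded by these libraries.

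Because MSH3 and MSH6 encode alternative partners, their ratio was computed in each library from the levels per kb. MSH6 exceeded MSH3 by 11.4, 13.3 and 13.8 times in WT initial, 19.0, 16.4 and 24.7 times in WT final, 9.17, 11.1 and 12.2 times in KO initial, and 11.02, 10.4 and 12.6 times in KO final libraries. The 3 WT final libraries lay above all others, and the other 3 groups overlapped. The group means were 12.8 ± 1.24, 20.0 ± 4.27, 10.8 ± 1.53 and 11.4 ± 1.16 in that order (SD, n = 3). The ratio was not tested. Its size depends on the gene lengths used: on counts alone it was 23.5, 27.4 and 28.3 in the WT initial libraries. The ratio also takes in the exon bases that MSH6 shares with FBXO11 and the low counts of MSH3. The highest ratio belongs to the library with the lowest MSH3 level.

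**Figure D3:**
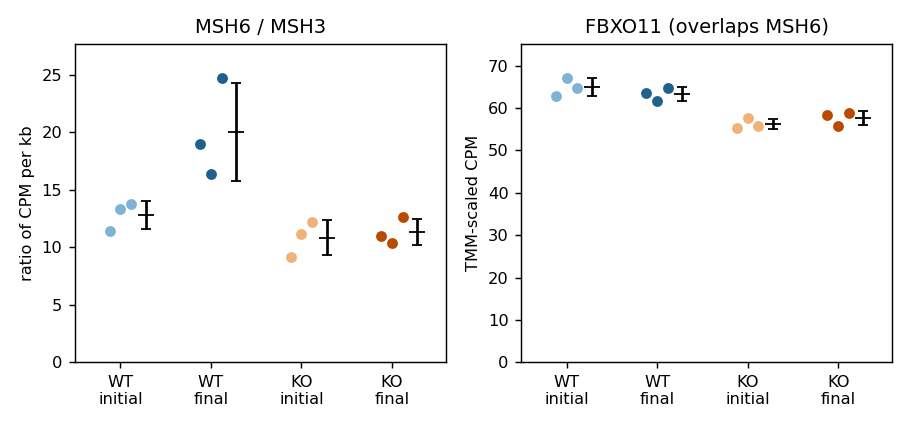
Left, ratio of MSH6 to MSH3 in CPM per kb in each library; right, TMM-scaled CPM of FBXO11, the gene that shares exon bases with MSH6 on the opposite strand. Points are libraries and bars the mean and SD of each group of 3, and the ratio is highest in WT final while FBXO11 is lower in KO over both harvests.

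Among the MutL genes none passed the test in any of the 6 comparisons. PMS2, which carries the nicking site of the main MutL complex (ENSG00000122512.16, chr7:5970925-6009106, minus strand), was the least variable of the 6. Its level was 22.3, 23.4 and 22.8 CPM in WT initial, 20.2, 19.3 and 20.8 in WT final, 21.6, 23.2 and 20.95 in KO initial, and 23.3, 21.1 and 22.4 in KO final libraries. The WT final libraries were the lowest group and overlapped with none of the other 3. Their difference from WT initial was -0.19 on the log2 scale (SE 0.08, unadjusted p = 0.0344, adjusted p = 0.205), and KO exceeded WT at the final harvest by 0.15 (SE 0.08, 95% interval -0.02 to 0.32, adjusted p = 0.233). Ranges that do not overlap were found for 22.2% of all tested genes in WT over time and for 33.1% between KO and WT at the final harvest. At the initial harvest the KO difference of PMS2 was -0.06 (95% interval -0.23 to 0.11, adjusted p = 0.658).

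PMS2 has near-identical copies, mostly pseudogenes on chromosome 7, and reads may be split between them and PMS2. The table lists 15 such copies, of which 5 were tested. Together the 15 averaged 16.9 CPM, against 21.8 CPM for PMS2. The copy with the highest level was PMS2CL at 9.61 CPM, with no call over both harvests (log2 fold change 0.06, adjusted p = 0.545). PMS2P4, at 0.557 CPM, was higher in KO over both harvests by 0.77 (adjusted p = 0.00701). How reads that map to several places were counted is not given in the sources used here, so the level of PMS2 is uncertain.

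PMS1 (ENSG00000064933.18, chr2:189784085-189877629, plus strand) spread more between replicates. It stood at 61.4, 42.3 and 51.8 CPM in WT initial and 57.0, 58.3 and 60.9 in WT final libraries. In KO it stood at 50.3, 47.9 and 52.8 CPM at the initial and 62.9, 58.5 and 49.7 CPM at the final harvest. The WT initial libraries alone spanned nearly the whole range of the gene. The differences over time were alike in size in WT, 0.18 (95% interval -0.06 to 0.43, adjusted p = 0.42), and in KO, 0.18 (95% interval -0.07 to 0.43, adjusted p = 0.503), and neither passed. The KO difference was -0.04 at each harvest, with 95% intervals of -0.29 to 0.20 in both.

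MLH3, the MutL homologue used mainly in meiosis (ENSG00000119684.16, chr14:75013769-75051532, minus strand), stood at 26.9, 23.3 and 28.2 CPM in WT initial and 24.8, 22.3 and 24.5 in WT final libraries. In KO it stood at 25.3, 24.1 and 26.1 CPM at the initial and 23.4, 28.1 and 24.3 CPM at the final harvest. All 4 groups overlapped. The KO difference was -0.06 at the initial harvest (95% interval -0.26 to 0.15, adjusted p = 0.746) and 0.08 at the final one (95% interval -0.12 to 0.29, adjusted p = 0.629). MLH3 shares no exon base with another gene of the annotation. ORMDL1, which shares 96 exon bases with PMS1 on the opposite strand, passed the test in none of the 6 comparisons (smallest adjusted p = 0.6), nor did AIMP2, which starts 149 bases from PMS2 on the opposite strand (smallest adjusted p = 0.299).

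EXO1, the exonuclease that removes the strand with the error, was somewhat higher in KO. The gene (ENSG00000174371.17) spans chr1:241847967-241895148 on the plus strand. Its level was 45.7, 56.2 and 48.9 CPM in WT initial, 44.4, 43.4 and 44.9 in WT final, 51.3, 57.9 and 55.3 in KO initial, and 52.0, 50.5 and 49.9 in KO final libraries. The WT final libraries were the lowest, and the KO final libraries lay above them without overlap, as 33.1% of all tested genes did in either direction, while the initial groups overlapped. Over both harvests EXO1 was 11.9% higher in KO, 0.16 on the log2 scale (SE 0.06, 95% interval 0.04 to 0.29, adjusted p = 0.0489 in edgeR's quasi-likelihood test), where 14% of all tested genes were called as higher. The difference was 0.13 at the initial harvest (adjusted p = 0.328) and 0.20 at the final one (unadjusted p = 0.031, adjusted p = 0.119), and neither passed alone. In WT over time it was -0.18 (unadjusted p = 0.0439, adjusted p = 0.232). The call over both harvests stood just under the threshold and was lost in 12 of 17 alternatives, with adjusted p from 0.00734 to 0.148 over all 17. The 12 included leaving out WT initial replicate 1 or 3, any WT final replicate, KO initial replicate 2 or 3, or any KO final replicate. The fold change stayed between 0.13 and 0.21. ENSG00000288723, which shares 160 exon bases with EXO1 on the opposite strand, passed in none of the 6 comparisons (smallest adjusted p = 0.333).

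**Figure D4:**
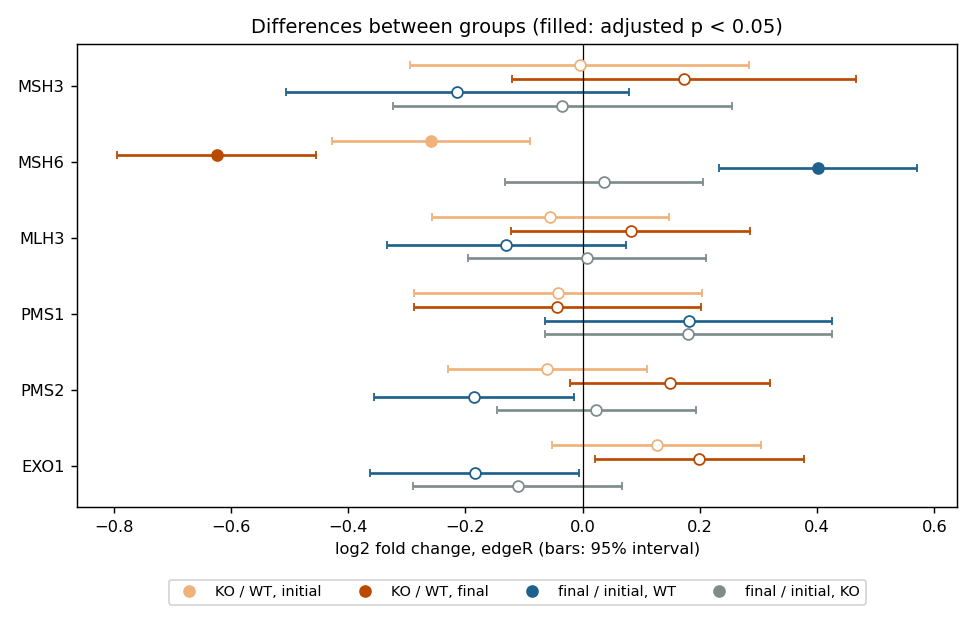
Log2 fold change of each gene in 4 comparisons with its 95% interval (edgeR); filled points have an adjusted p under 0.05. MSH6 is lower in KO at both harvests (-0.26 and -0.62) and higher in WT final than in WT initial (0.40), and no other point is filled.

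Over the 6 genes the median log2 fold change was -0.05 for KO against WT at the initial harvest, where the median of all tested genes was 0. It was 0.12 at the final harvest, 0.03 over both harvests, -0.16 for WT over time and 0.02 for KO over time, beside all-gene medians of -0.001, 0.003, 0.006 and 0.005. In the final KO comparison and in WT over time, the log2 fold change of MSH6 had the opposite sign to those of MSH3, MLH3, PMS2 and EXO1. PMS1 shared the sign of MSH6. None of these other genes passed the test there. The 6 genes did not share 1 direction.

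The start regions of 3 of the 6 genes (EXO1, MSH6 and MSH3) hold letters known from binding sites of E2F, the factors that drive S phase genes, and they are shown for the 2 genes called in KO over both harvests. The letters searched were TTTCCCGC, TTTGGCGC and TTTCGCGC on both strands, in RefSeq windows of 300 bases around each start on GRCh38.p14, most of them upstream. The matches are in capitals, in 30 bases each on the plus strand.
EXO1, chr1:241848197-241848226: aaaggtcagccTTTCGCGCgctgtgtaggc
MSH6, chr2:47783137-47783166: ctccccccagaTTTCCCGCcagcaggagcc
In both genes the match lies just after 1 RefSeq start. MSH6 has 4 RefSeq windows and EXO1 has 2, and the other windows of each hold no match. The MSH6 start beside the match lies inside the longer gene model of the count table. Of all 27305 genes with a window, 902 (3.3%) hold at least 1 of these letter sets. The cell cycle element letters TTTGAA (18.2% of genes) and the ETS letters CCGGAAG (12.2% of genes) were found in 0 of the 6. A match of letters describes the sequence only, and MSH3, which holds it, was not called in any comparison.

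Genes that act after the mismatch has been found stayed mostly below the threshold. The 15 genes read here were those of the clamp, clamp loader, single-strand binding, polymerase delta and ligase group, and HMGB1. Of the 15, 1 was lower in KO over both harvests and 0 were higher, against 30.1% of all tested genes called. That gene was POLD4, the small subunit of polymerase delta, with a log2 fold change of -0.41 (SE 0.09, adjusted p = 0.00261) and levels of 4.35 ± 0.0749 CPM in WT initial, 4.51 ± 0.27 in WT final, 3.10 ± 0.453 in KO initial and 3.57 ± 0.29 in KO final libraries. In WT over time 1 of the 15 was lower, beside 6.47% of all tested genes called and 3.42% called as lower. It was LIG1, the ligase that seals the gap, at 126 ± 9.78 CPM in WT initial and 98.4 ± 7.28 CPM in WT final (-0.36, SE 0.08, adjusted p = 0.0111). The LIG1 call was lost without WT final replicate 2 (-0.32, adjusted p = 0.0712) or 3 (-0.34, adjusted p = 0.0713) and with only the groups compared (-0.36, adjusted p = 0.0828). LIG1 moved opposite to MSH6 in that comparison. Between KO and WT at the initial harvest 1 of the 15, POLD4, was called as lower in edgeR and 2 in DESeq2, beside 19.9% of all tested genes called in edgeR. LIG1 differed there by -0.22 (adjusted p = 0.0579 in edgeR), with the same sign as MSH6. At the final harvest 0 of the 15 were called between KO and WT (0 in DESeq2, 1 at an unadjusted p under 0.05), beside 18.5% of all tested genes.

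Relatives and partners of the 6 genes were also read. MSH5, a meiotic MutS homologue, is listed at 0 counts in all 12 libraries, as are 2 genes that share its locus, MSH5-SAPCD1 and SAPCD1. How reads that fall on several genes were counted is not given in the sources used here. The 0 counts therefore do not show that MSH5 was not transcribed. MSH4, its meiotic partner, averaged 2.69 to 3.25 CPM in the 4 groups. Of the 4 tested relatives (MSH4, FEN1, GEN1 and ERCC5), 0 were called in each of the 6 comparisons by edgeR and by DESeq2, and at most 1 had an unadjusted p under 0.05 in any of them. Of 6 chromatin and helicase partners, 2 were called over both harvests, a share close to the 30.1% of all tested genes. MCM9, a helicase that takes part in mismatch repair, was lower in KO by -0.27 (adjusted p = 0.00214), at 24.6 ± 1.23 CPM in WT initial, 21.6 ± 0.985 in WT final, 18.4 ± 0.167 in KO initial and 19.8 ± 1.47 in KO final libraries. Its partner MCM8 was higher in KO by 0.36 (adjusted p = 0.00066), at 20.2 ± 1.77, 18.5 ± 0.511, 24.8 ± 0.686 and 24.6 ± 2.69 CPM in the same order. These partners of 1 helicase complex thus had opposite signs, and MCM9 shared its sign with MSH6. In edgeR MCM9 differed by -0.42 at the initial harvest (adjusted p = 0.00187) and by -0.13 at the final one (adjusted p = 0.341). MSH6 differed by -0.26 and -0.62 in the same order.

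S phase genes were read because mismatch repair genes are expressed with replication. Their summed level over 18 genes ran from 4383 to 5168 CPM in WT initial, 4207 to 4616 in WT final, 4569 to 5026 in KO initial and 4356 to 4784 in KO final libraries, and the 4 groups overlapped. Over both harvests 3 of the 18 were higher in KO and 0 were lower, where 14% of all tested genes were higher and 16.1% lower, so the share of higher genes is near that of all genes. They were RRM2, a ribonucleotide reductase subunit (0.24, adjusted p = 0.02), MCM4, a replicative helicase subunit (0.21, adjusted p = 0.0249), and CDK1, the mitotic kinase (0.18, adjusted p = 0.0319), the last named after its values were seen. Each of these calls was lost in at least 4 of 17 alternatives, among them leaving out WT initial replicate 3, KO initial replicate 2 or 3 or KO final replicate 1. In WT over time 0 of the 18 were called in edgeR, 1 in DESeq2 and 2 at an unadjusted p under 0.05, beside 6.47% of all tested genes called in edgeR. The part of proliferation in the differences of either gene was not tested.

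**Figure D5:**
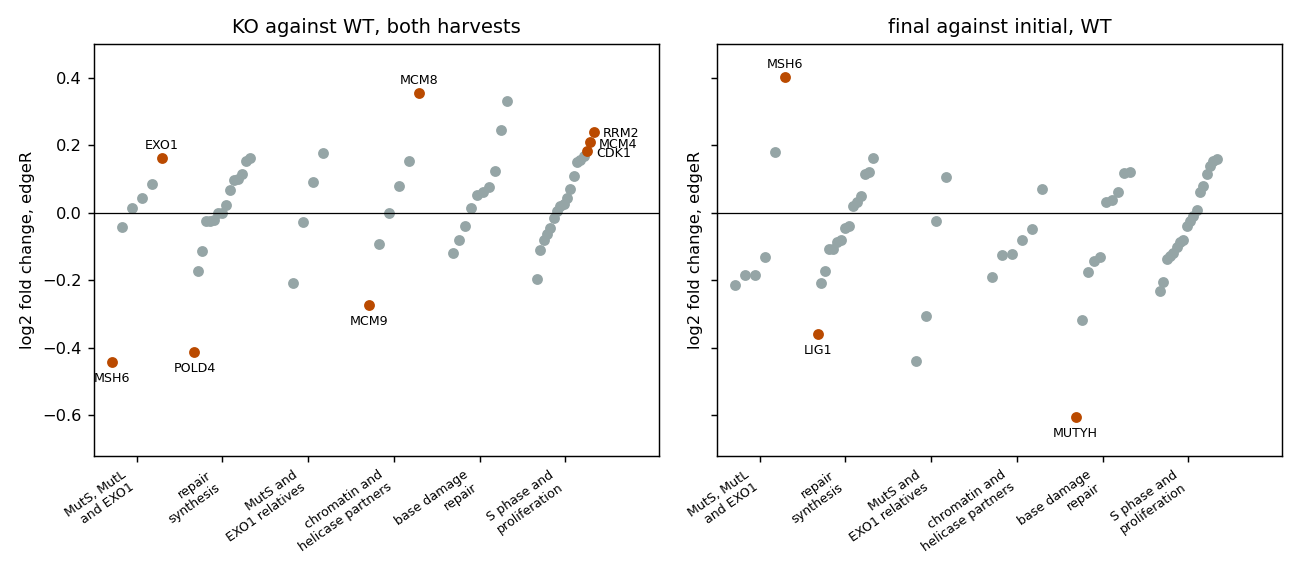
Log2 fold change of every tested gene in 6 lists (points, sorted within a list), for KO against WT over both harvests (left) and final against initial in WT (right); orange points have an adjusted p under 0.05 in edgeR and are named. MSH6 is the lowest of the members on the left (-0.44) and the highest on the right (0.40).

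The genes whose pattern over the 12 libraries was nearest to that of MSH6 and EXO1 were found among 11353 expressed genes, by the root-mean-square difference of centred log2 CPM. For MSH6 these were IL4R, a cytokine receptor gene (0.09), and CDCP1, a membrane protein gene (0.09). A flat profile would differ from MSH6 by 0.27, and the median gene did by 0.31. IL4R averaged 50.4, 64.5, 41.9 and 39.5 CPM in WT initial, WT final, KO initial and KO final libraries, and CDCP1 averaged 511, 696, 457 and 469 CPM. Like MSH6, both were highest in WT final, a likeness that follows from choosing them by their pattern in the same libraries. For EXO1 the nearest genes were SMIM7 (0.04) and MGME1, a mitochondrial exonuclease gene (0.05), against 0.13 for a flat profile and a median of 0.20. SMIM7 averaged 33.3, 29.6, 36.7 and 34.4 CPM in the same order, lowest in WT final as EXO1 was, which again follows from the choice.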

How the data were processed

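Sequencing reads of the 12 libraries were processed by the authors with STAR, featureCounts and Subread on hg38, per the submitters' processing notes. The table deposited by the authors gives whole-number counts of each gene in each library, not normalized, with the gene length beside them. The annotation release, the strand setting and the treatment of multi-mapping reads are not given in the sources used here. Of the gene IDs, 37318 carry the same version in GENCODE 29, all with identical coordinates. Symbols were found for 60506 genes. A gene broken over 5 lines was left out.

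Counts were scaled with TMM and fitted with edgeR 4.0.16 (limma 3.58.1, R 4.3.3): filterByExpr by group, 1 robust quasi-likelihood model of 4 group means over 12 libraries, and 6 contrasts. They were KO against WT at each harvest and averaged, final against initial in each genotype, and the interaction. P-values were adjusted by Benjamini-Hochberg over 18289 genes, and a gene was called under 0.05. The biological coefficient of variation was 9.77%. Standard errors are the fold change divided by the root of the F statistic, and 95% intervals use t quantiles. Scripts were tested on simulated data. The alternatives were DESeq2 1.42.0 and its size factors, other low-count filters, only the groups compared, a replicate block, each library left out and, added after seeing the data, the length of 1 coding transcript.

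Same-numbered libraries of different groups had correlations of their deviations of -0.358 to 0.238 and differently numbered ones of -0.427 to 0.388, so the numbers were not used as pairs. Nothing says whether replicates came from separate cultures, so p-values measure the spread between these libraries. The 6 genes and the lists were chosen with earlier results of these data known. Named were the 6 genes, MTHFD2, tested genes that overlap a member or start within 5 kb of it, up to 2 called genes per list, direction and comparison, and the 2 genes nearest in pattern to each called member. Another overlapping gene is not reported here. Sequences come from GENCODE 29 and RefSeq.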

Additional observations from a re-analysis of the deposited data

How the results depend on the processing

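The number of the 6 genes called for KO against WT at the initial harvest, 1 at first, was 0 with no filter on low counts, 0 with only the groups compared, and 0 to 1 when each replicate was left out in turn. Over both harvests it was 1 with no filter on low counts, 1 with the replicate block (EXO1 adjusted p = 0.0553) and 1 to 2 when each replicate was left out. The block ended no other call of the 6 genes. The counts for KO against WT at the final harvest and for each comparison over time or of the interaction did not change under the alternatives run. With the length of 1 coding transcript, levels per kb were 1.06 for MSH3, 16.05 for MSH6, 5.59 for MLH3, 16.9 for PMS1, 7.63 for PMS2 and 15.7 for EXO1. For the 6 genes, 636 recomputed differences included 18 that lost a call, 0 that gained one and 0 called ones that changed sign, while 31 uncalled ones changed sign. For the other named genes, 1072 included 117 that lost a call and 8 that gained one. MSH6 ranged from -0.30 to -0.21 at the initial harvest, -0.68 to -0.59 at the final one and 0.36 to 0.46 in WT over time.

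Counts over all tested genes moved more: 3635 at the initial harvest became 2407 without KO initial replicate 2. WT over time went from 1183 to 579 with only the groups compared and to 624 without WT final replicate 3, 638 without WT final replicate 2 and 679 without WT initial replicate 3. KO over time went from 270 to 602 in DESeq2, 484 with no filter, 723 with only the groups compared and 91 to 471 when each replicate was left out. The interaction went from 235 to 472 in DESeq2, 423 with no filter and 124 to 444 when each replicate was left out. Fits of only the groups compared do not apply to the average and the interaction. MSH3 rests on 125 to 196 counts per library. Whether its interval reflects counting error or replicate spread was not tested.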

Other observations

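Glycosylases and other enzymes that act on single damaged or mispaired bases were read beside the mismatch repair genes. Of 10 such genes, 1 was higher in KO at the initial harvest, where 8.55% of all tested genes were higher and 19.9% called. It was NTHL1, a glycosylase for oxidized pyrimidines, at 20.5 ± 4.44 CPM in WT initial and 26.7 ± 0.417 CPM in KO initial libraries (log2 fold change 0.38, SE 0.13, adjusted p = 0.046 in edgeR's quasi-likelihood test). The call was lost in 9 of 18 alternatives, and without WT initial replicate 1 the difference was 0.24 (adjusted p = 0.165). In WT over time, where 6.47% of all tested genes were called and 3.42% were lower, 1 of the 10 was lower: MUTYH, a glycosylase that removes adenine opposite oxidized guanine, at 6.32 ± 0.79 CPM in WT initial and 4.16 ± 1.01 CPM in WT final (-0.61, SE 0.16, adjusted p = 0.0308). That call was lost in 5 of 18 alternatives, with adjusted p up to 0.16 without WT final replicate 2. Over both harvests 0 of the 10 were called by edgeR, with 2 at an unadjusted p under 0.05 and 2 called by DESeq2, beside 30.1% of all tested genes called by edgeR. The MutS partner MSH6 and MUTYH thus had opposite signs in WT over time.

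Among the 6 tested colon epithelial markers, 4 were lower in KO over both harvests and 0 higher, against 30.1% of all tested genes called. They were the adhesion genes CDH1 (-0.72, adjusted p = 1.98e-05) and EPCAM (-0.34, adjusted p = 0.00152) and the keratin genes KRT18 (-0.31, adjusted p = 0.00237) and KRT19 (-0.38, adjusted p = 0.00362). The transcription factor gene CDX2 differed by 0.10 (adjusted p = 0.461). Of 5 tested markers of other cells, PDGFRB was higher in KO (1.02, adjusted p = 0.000172) and the collagen genes COL1A1 (-0.54, adjusted p = 0.000288) and COL3A1 (-1.67, adjusted p = 0.000289) were lower, beside the same 30.1%. PDGFRB and COL3A1 were low, with group means of 0.692 to 1.51 and 0.211 to 1.32 CPM. In edgeR the COL3A1 difference was -2.635 at the initial harvest (adjusted p = 0.000149) and -0.709 at the final one (adjusted p = 0.265). Over both harvests PDGFRB had the opposite sign to MSH6, while the other called markers shared its sign. By size, CDH1 and EPCAM differed more at the initial harvest, and KRT18 and KRT19 more at the final one, as MSH6 did. In WT over time, where MSH6 rose, COL3A1 was called as lower, beside 3.42% of all tested genes. That call was lost in 10 of 17 alternatives. The part of these markers in the difference of MSH6 was not tested.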
